A study of Trichosurus vulpecula with 116 samples.

Results

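The lung library of Sandy, a male pouch young of the common brushtail possum (Trichosurus vulpecula) aged 22 days postpartum (dpp), was 1 of 13 tissues sequenced from this animal and 1 of 116 libraries in the expression table. It was chosen by its label, and its values were set beside Sandy's bladder, brain, eye, heart, kidney, large intestine, liver, muscle, skin, small intestine, spleen and stomach. Sandy is the animal whose genome was assembled. A further 101 libraries came from livers, kidneys, brains and tongues of other possums of several ages, none of them a lung. Each of Sandy's tissues was sequenced from a piece of RNAlater-preserved tissue as 1 poly(A)-enriched, strand-specific library, with no treatment. There are therefore no replicates, and the lung is described by levels and ranks without a test.

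A lung branches from the foregut into conducting airways, lined by ciliated and secretory cells over a basal layer, and ends in gas-exchange sacs. The sacs are lined by flat type I cells, across which gas diffuses, and by cuboidal type II cells, which make surfactant, the lipid and protein film that keeps the sacs open. A dense capillary bed, elastic fibres and resident immune cells surround them. Marsupials are born with a lung of simple large sacs, and the division into alveoli takes place in the pouch.

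Levels are given in CPM, reads scaled to the same library total in every tissue, and intervals are 95% intervals that cover counting error only, not the spread between animals. The lung held 23107908 reads on genes, among 17130171 (eye) to 32064469 (bladder) in the 13 libraries, so that 3 reads, the floor used below, correspond to 0.115 CPM in the lung. Of 23816 genes in the table, 18775 had at least 10 reads in at least 1 of the 13 tissues and were compared. The median gene was 0.32 higher in the lung on the log2 scale than its median in the other 12 tissues, and 0.02 higher after the 75th percentile of the libraries was made equal. Over the 18775 genes, ranks in the lung were most like those in the bladder (Spearman's rho 0.894, across genes) and least like those in the brain (0.684). Mitochondrial genes took 4.04% of the lung library, against 18.4% in the heart and 2.15% in the eye.

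The lung was the highest of the 13 tissues for 1796 genes, or 9.57% of those compared, and at least 2-fold above the highest other tissue for 489 genes, or 2.60%. Brain (1245 genes), spleen (869) and skin (540) had more genes past the same 2-fold rule, and the small intestine had the fewest, at 31. Of the 489 genes, 290 stood 2-fold to 4-fold above the next tissue and 32 stood more than 32-fold above it. The next tissue was most often the eye (79 genes), the brain (71) or the kidney (61). In the other direction, 5 genes, or 0.0266%, were at least 2-fold below the lowest other tissue. A weaker rule, at least 2-fold above the median of the other tissues, held for 4611 genes, or 24.6%, and its opposite for 905, or 4.82%. These shares are the background for the lists below. In whole tissue, fewer cells of a type and less RNA per cell cannot be told apart.

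The spread between animals cannot be measured for the lung, but libraries from several pouch young exist for kidney and brain. Among 8 kidneys from other pouch young of 10 to 85 dpp, the median SD of a gene was 0.64 on the log2 scale, and Sandy's own kidney was at least 2-fold from their median for 41.0% of 4406 genes. For 7 brains of 10 to 62 dpp the SD was 0.68 and Sandy's brain was that far from their median for 3560 of 8889 genes. Age and depth differed among those libraries too. A difference of about 2-fold between the lung and another tissue is thus of the size seen among libraries of 1 tissue. The paper used either of 2 library kits, with different read lengths, and the kits of these libraries were not compared. Animal, age, depth and library kit are not separated in that spread.

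**Figure D1:**
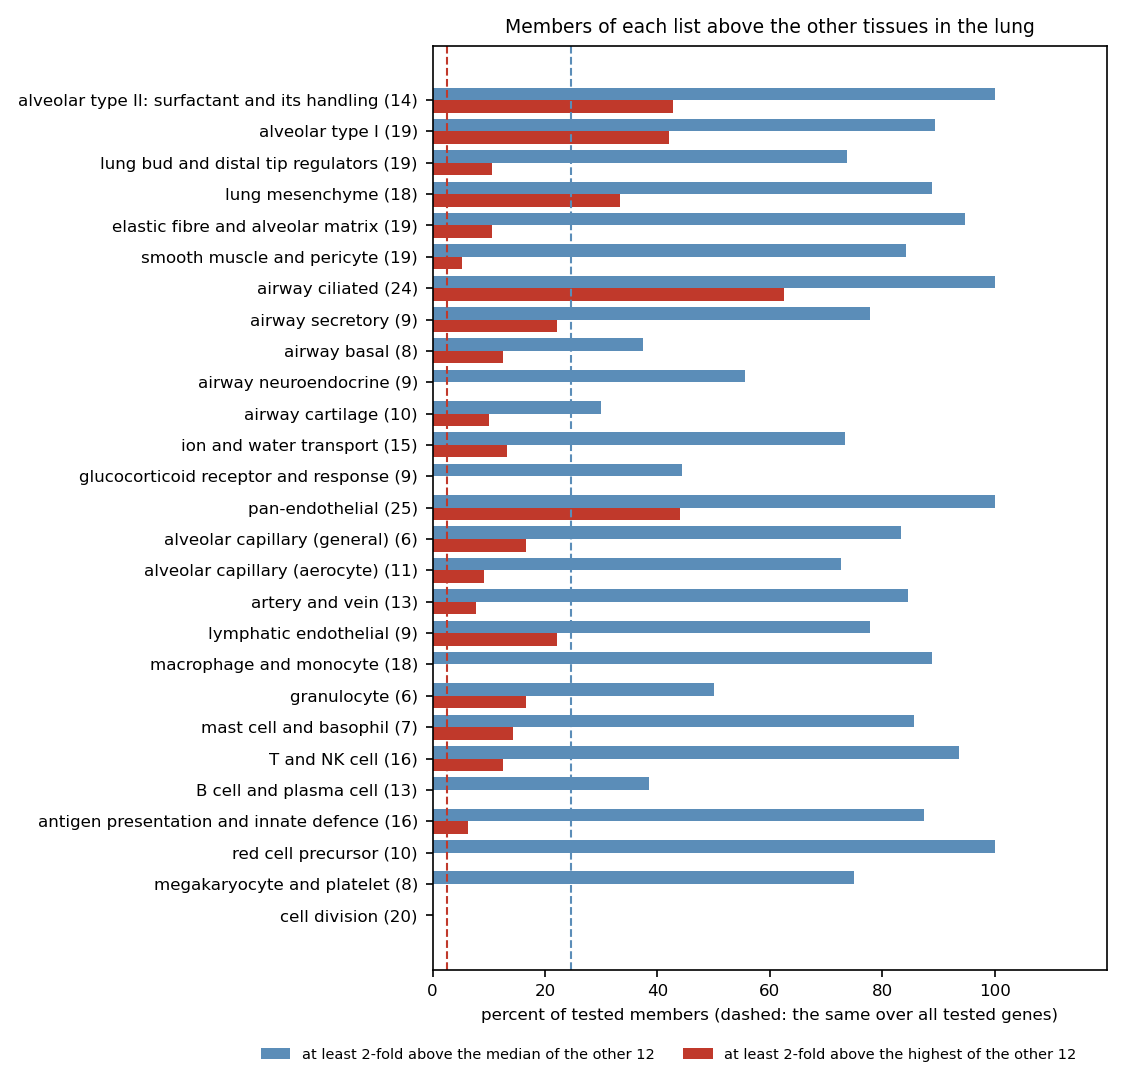
Percent of the tested members of each gene list (their number in parentheses) whose lung level was at least 2-fold above the median (blue) or the highest (red) of the other 12 tissues, with the same percent over all 18775 genes as dashed lines. The alveolar, ciliated and endothelial lists have the longest red bars, and the cell division list has none of either colour.

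Genes of surfactant were the clearest mark of the lung. Of 14 tested genes of type II cells and surfactant handling, 14 were at least 2-fold above the median of the other tissues, 9 were highest in the lung and 6 were at least 2-fold above the next tissue. Summed, they took 1.32% of the lung library, 0.178% of the large intestine library, the next, and 0.0259% of the spleen library, the lowest. SFTPC, which encodes the small hydrophobic surfactant protein C (chromosome 3, 295765053 to 295767688 on the minus strand of the mTriVul1 assembly), took 200417 reads, or 7709 CPM. It had no reads in 8 of the other tissues and 5 reads (0.173 CPM) in the skin, the next. Apart from mitochondrial and ribosomal protein genes, which were not ranked, it drew the most reads of any gene in the lung, a count that also depends on gene length.

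SFTPB encodes surfactant protein B, without which newborn mammals cannot form a working film (chromosome 3, 404118079 to 404130749, minus strand). Its level was 2033 CPM, with 2 reads in the kidney and none in the other 11 tissues, a ratio of 36263 to the kidney with a 95% counting interval of 10038 to 299442. Both proteins are stored with lipid in lamellar bodies, whose membrane carries the lysosomal protein LAMP3. LAMP3 reached 833 CPM, against 5.31 CPM in the spleen, the next, and a median of 0.307 CPM. NAPSA, an aspartic protease that trims the surfactant protein B precursor, reached 195 CPM against 1.19 CPM in muscle. SFTA2, a small secreted surfactant-associated protein, was at 58.1 CPM, with 1.08 CPM in the stomach and no reads in 9 tissues. For these 5 genes the lung and the other 12 tissues did not come near each other.

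Other genes of the list, which type II cells share with other tissues, stood less far above the next tissue or below it. ADGRF5, the receptor through which type II cells hold down the size of the surfactant pool, was at 436 CPM and 3.45-fold above the kidney. It was past the 2-fold rule after the change of scaling too, with a log2 lead of 1.49. LPCAT1, which makes the saturated phosphatidylcholine of surfactant, was at 181 CPM, second to the bladder at 229 CPM. FASN, the fatty acid synthase, was at 502 CPM against 496 CPM in the brain, and was no longer the highest after the change of scaling. SCD, the desaturase, ranked the third at 512 CPM, with 1341 CPM in the large intestine. MUC1, a mucin of the cell surface, was at 272 CPM in the lung and 1128 CPM in the stomach. SFTPA1, SFTPD, ABCA3, CTSH and SLC34A2 were not matched by symbol and are not analysed here.

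Type I cells were as plain to see. Of 19 tested genes, 17 were at least 2-fold above the median, 12 were highest in the lung and 8 were at least 2-fold above the next tissue (7 after the change of scaling, without EMP2). AGER, the receptor for advanced glycation end products and the classical surface marker of type I cells, was at 299 CPM, while the other tissues ran from 0.133 to 2.38 CPM with a median of 0.748 CPM. That is 126-fold above the eye, the next, with a counting interval of 94.9 to 170. AQP5, the water channel of their outer membrane, was at 79.4 CPM against 1.82 CPM in the kidney and no reads in 6 tissues. RTKN2, a further marker of type I cells, was at 31.8 CPM and 4.02-fold above the eye. COL4A4, a collagen chain of the basement membrane shared by the sac and its capillary, was at 88.3 CPM and 5.69-fold above the kidney.

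Other type I genes were set apart by less. CLIC5, an ezrin-associated channel protein, was 3.87-fold above the kidney at 397 CPM, and the receptor GPRC5A was 3.46-fold above the large intestine at 401 CPM. CAV1, the coat protein of caveolae, is shared with endothelium and muscle, and its 1246 CPM stood 1.66-fold above the heart. CLDN18, a tight junction claudin with lung and stomach forms, was at 193 CPM in the lung, 219 CPM in the stomach and at most 0.176 CPM in the remaining tissues. PDPN, a mucin-like protein also made by lymphatic vessels, was at 192 CPM, second to the eye at 241 CPM. Of the 33 tested alveolar genes together, 31 were at least 2-fold above the median, and the 2 others were SEMA3B and AKAP5.

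**Figure D2:**
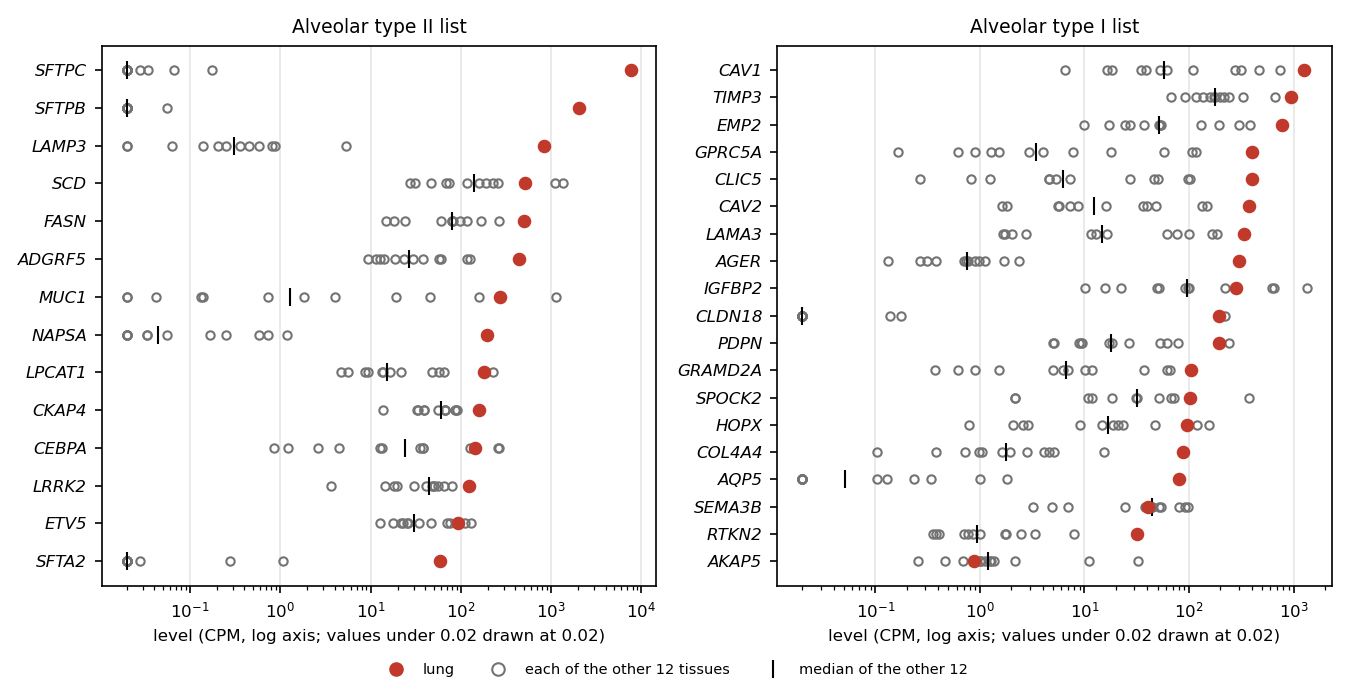
Level (CPM, log axis) of each tested gene of the type II list (left) and type I list (right) in the lung (red), in each of the other 12 tissues of Sandy (open circles) and as the median of those 12 (bar). SFTPC, SFTPB, LAMP3, NAPSA, SFTA2, AGER and AQP5 lie at least 43.6-fold to the right of every other tissue, and AKAP5 and SEMA3B lie among them.

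The regulators that lay down the lung were also read. Of 19 tested genes, 14 were at least 2-fold above the median, 5 were highest in the lung and 2 were at least 2-fold above the next tissue. NKX2-1, the homeobox factor that sets lung identity in the foregut and drives surfactant genes (chromosome 3, 39170547 to 39172939, plus strand), was at 64.2 CPM from 1668 reads. The brain had 1 read, and 11 tissues had none. The thyroid, the other foregut organ that uses NKX2-1, was not among the tissues sampled. Its partner FOXA2 was at 97.2 CPM, below the stomach at 114 CPM. GATA6, a zinc finger factor of foregut endoderm, was at 105 CPM, the third after heart (210 CPM) and stomach (160 CPM).

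Genes known from the branching tip of the lung bud were detected, but a whole-tissue library does not place them there. BMP4, a tip-derived growth factor, was at 133 CPM, 2.15-fold above the bladder, and was below the 2-fold rule after the change of scaling. SHH, which the epithelium sends to the mesenchyme, was at 38.8 CPM, the third after bladder (69.0 CPM) and stomach (59.9 CPM). FGFR2, the epithelial receptor for FGF10, was at 198 CPM, second to skin at 404 CPM. SOX9, the factor of distal progenitors, had 1143 reads and ranked the third, with 162 CPM in the eye. IRX1 and IRX3, homeobox genes of the distal epithelium, were highest in the lung at 100 and 109 CPM, with the brain (60.1 CPM) and the heart (71.8 CPM) next.

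Factors and ligands known from lung mesenchyme were read in the same way. Of 18 tested genes, 16 were at least 2-fold above the median and 6 at least 2-fold above the next tissue, or 4 after the change of scaling (without LIMCH1 and MFAP4). TBX4, a T-box factor of lung and hindlimb mesenchyme, was at 101 CPM, with 34.7 CPM in the bladder and at most 0.486 CPM in the remaining tissues. Its relative TBX5 was at 45.8 CPM, second to the heart at 68.1 CPM. WNT2, a ligand from the mesenchyme needed to specify the lung, was at 30.3 CPM and 4.14-fold above the bladder. FGF10, the ligand that draws buds outward, was at 9.35 CPM against 8.37 CPM in the stomach. FOXF1 and TCF21, factors of the lung's fibroblasts and vessels, were highest in the lung at 54.1 and 115 CPM.

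Elastic tissue was widespread. Of 19 genes of elastic fibres and alveolar matrix, 18 were at least 2-fold above the median and 10 were highest in the lung, but 2 were 2-fold above the next tissue, or 1 after the change of scaling (without COL4A1). The next tissue was most often the bladder. ELN, the elastin itself, was at 857 CPM against 591 CPM in the bladder and 4.38 CPM in the brain, the lowest. FBN1, the microfibril protein fibrillin, was at 576 CPM against 444 CPM in the skin. LTBP2, a fibrillin-binding protein, was at 115 CPM and 2.68-fold above the eye. The basement membrane chains COL4A1 and COL4A2 were highest in the lung at 2398 and 1675 CPM. These collagen genes overlap each other on opposite strands, and it is not given in the sources used here whether reads were counted by strand.

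Smooth muscle was modest beside that of the bladder. Of 19 smooth muscle and pericyte genes, 16 were at least 2-fold above the median and 4 were highest in the lung. ACTA2, smooth muscle actin, was at 186 CPM in the lung and 4299 CPM in the bladder. MYH11, the smooth muscle myosin, was at 496 and 10881 CPM. The pericyte genes RGS5 (1006 CPM, with 951 CPM in the bladder), PDGFRB (139 CPM, with 95.0 CPM in the kidney) and ABCC9 (111 CPM, with 101 CPM in the heart) were highest in the lung by 1.06-fold to 1.47-fold, and RGS5 and ABCC9 lost this place after the change of scaling. HIGD1B, another pericyte gene, was at 20.4 CPM and 8.98-fold above the bladder, a log2 lead of 3.17 that was 0.77 with liver, kidney and brain taken from other pouch young.

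In the airway, the ciliated cell stood out. All 24 tested genes of the ciliated list were at least 2-fold above the median, 20 were highest in the lung and 15 were at least 2-fold above the next tissue, the largest share of any list. Their summed reads made up 0.0864% of the lung library, 0.0295% of muscle, the next, and a median of 0.00841% in the other tissues. Most of the muscle share came from TPPP3, which is described below. MCIDAS, which starts the multiciliated programme, was at 2.65 CPM (69 reads, with at most 2 reads elsewhere), and its chromosomal neighbour CCNO, a cyclin needed to multiply centrioles, was at 14.5 CPM and 110-fold above the brain, with 4 reads there and an interval of 42.4 to 404. FOXJ1, the factor that turns on the motile axoneme, was at 77.1 CPM and 2.42-fold above the large intestine, and was below 2-fold after the change of scaling.

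Parts of the motile axoneme followed. DNAH5 and DNAH9, heavy chains of the outer dynein arm, were at 66.8 and 52.5 CPM, 2.78-fold above the bladder and 1.75-fold above the brain. CCDC39 and CCDC40, which set the repeat length along the axoneme, were 3.60-fold and 4.75-fold above the brain. SPAG6, of the central pair, was at 30.1 CPM and 15.7-fold above muscle, and ZMYND10, a cytoplasmic factor that assembles dynein arms, was at 13.5 CPM and 26.8-fold above the kidney. PIFO, of the ciliary base, was at 9.35 CPM with 8 reads in the brain and none in the other 11 tissues. TPPP3 was at 156 CPM, second to muscle at 230 CPM, and RSPH1 ranked the fifth with 39 reads. HYDIN, CAPS, TEKT1, RSPH9, RFX2 and DRC1 overlap a gene on the opposite strand, and their levels carry that doubt.

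Of 9 tested genes of airway secretory cells, 7 were at least 2-fold above the median, and 2, both secretoglobins, were highest in the lung and at least 2-fold above the next tissue. SCGB3A1, a secretoglobin of airway secretory cells, was at 101 CPM from 2632 reads, with 3 reads in the bladder, 2 in the skin and none in the other 10 tissues. Its sister SCGB3A2 was at 17.3 CPM and 17.7-fold above the kidney, a log2 lead of 4.14 that was 1.92 with liver, kidney and brain taken from other pouch young. The goblet cell mucin MUC5AC had 2 reads in the lung and 43417 in the stomach, and SPDEF, the factor that turns secretory cells into goblet cells, had 4. AGR2, which folds mucins, was at 40.6 CPM against 892 CPM in the stomach. SCGB1A1, MUC5B and BPIFA1 were not matched by symbol.

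Of 8 tested basal cell genes, 3 were at least 2-fold above the median. SNAI2, a factor of migrating cells, was at 181 CPM and 2.00-fold above the skin, below 2-fold after the change of scaling. TP63, the master factor of basal cells, had 6 reads in the lung (0.231 CPM) against 110 CPM in the skin. The integrin ITGA6, which anchors basal cells, was at 54.3 CPM, the sixth of 13, and NGFR, their growth factor receptor, was at 3.15 CPM, the lowest of all 13 tissues. The keratins KRT5, KRT14, KRT15 and KRT17 were not matched by symbol. Of 9 neuroendocrine genes, 5 were past the median rule and none was highest in the lung. CHGB, a granin of secretory granules, was at 35.1 CPM and ranked the fifth, and NEUROD1, a factor of neuroendocrine cells, had no reads.

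**Figure D3:**
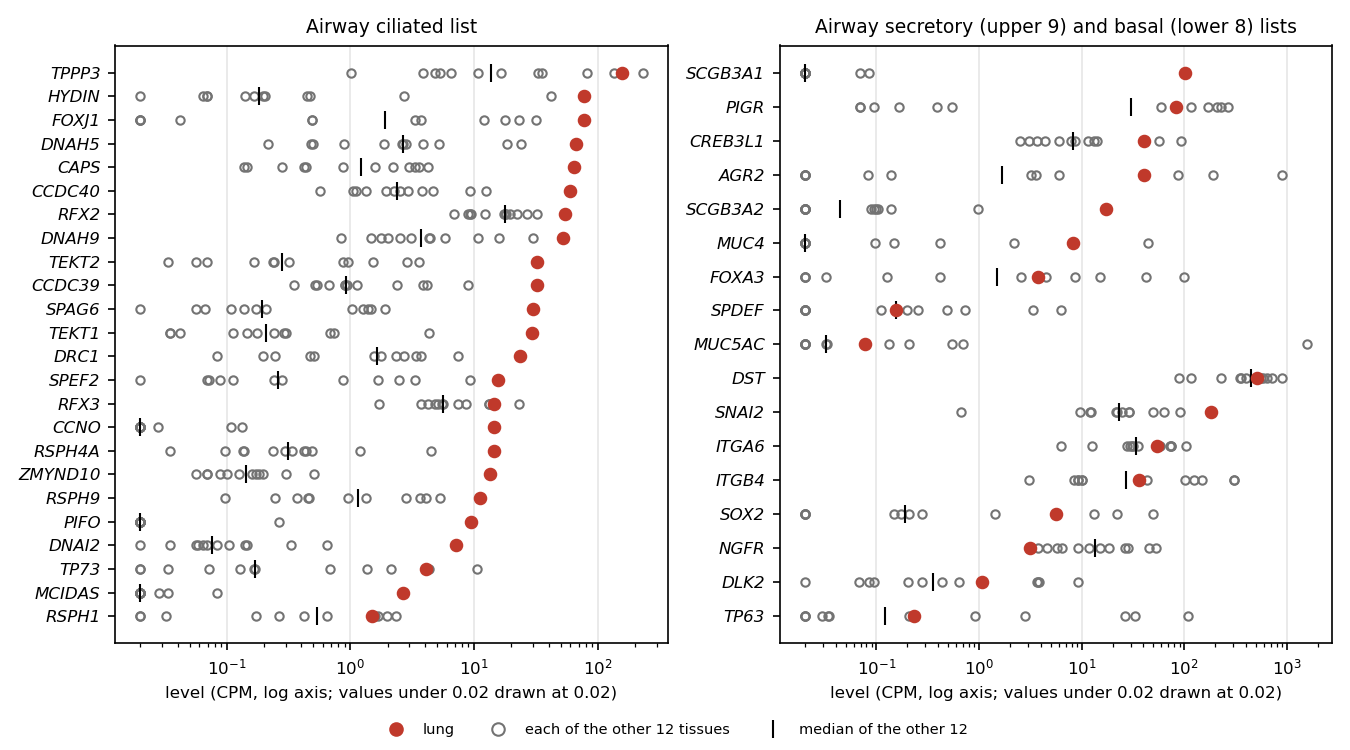
Level (CPM, log axis) in the lung (red), each of the other 12 tissues (open circles) and their median (bar) for the ciliated list (left) and for the secretory and basal lists (right). Ciliated genes lie at the right edge of their row in 20 of 24 cases, while TP63 and MUC5AC lie among the tissues with few reads.

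Cartilage genes of the airway wall were divided. Of 10 tested, 3 were at least 2-fold above the median, 2 were highest in the lung and 4 were at least 2-fold below the median. Their summed share was 0.00891% of the library, the fourth of 13, with a median of 0.00689% in the other tissues. COL2A1, the main cartilage collagen, was at 1.88 CPM from 49 reads, against 234 CPM in the eye, and ACAN, the cartilage proteoglycan, had 4 reads. HAPLN1, a link protein of hyaluronan matrices in and outside cartilage, was at 28.5 CPM and 2.91-fold above the kidney.

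Ion and water transport genes were highest in the kidney in 8 cases and in the lung in 3. Of 15 tested genes, 11 were past the median rule and 2 were at least 2-fold above the next tissue. These were KCNQ1, a potassium channel (119 CPM, 3.01-fold above the stomach), and ANO1, a calcium-gated chloride channel (99.6 CPM, 2.93-fold above the stomach). SLC12A2, which loads chloride into secreting cells, was the highest at 92.5 CPM, against 68.5 CPM in the stomach. CFTR, the chloride channel of secretion, had 650 reads and ranked the fourth, with 51.9 CPM in the stomach. The sodium channel subunits that clear fluid, SCNN1B and SCNN1G, were at 13.2 and 15.0 CPM, both ranked the fourth, with 42.3 and 68.6 CPM in the kidney. SCNN1A was not matched.

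Glucocorticoid hormone drives lung maturation in mammals. Its receptor NR3C1 was at 216 CPM, the third after skin (249 CPM) and muscle (236 CPM), and 4 of 9 tested genes of the list were past the median rule. None was 2-fold above the next tissue. FKBP5, which the receptor induces, had 963 reads and ranked the fifth. HSD11B1, which regenerates the active hormone, had no reads in any of the 13 tissues. In the libraries of other animals it reached at most 0.00818 CPM, from 1 read in an adult liver. The lack of reads is therefore not particular to the lung, and its cause was not tested.

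Endothelial genes were high throughout their list. All 25 tested pan-endothelial genes were at least 2-fold above the median, 23 were the highest in the lung and 11 were at least 2-fold above the next tissue. After the change of scaling these numbers were 25, 17 and 9, with TEK, EMCN, SOX18, ICAM2, S1PR1 and MMRN2 no longer highest and TIE1 and EGFL7 no longer past 2-fold. Their summed reads were 0.585% of the lung library, 0.171% of the heart, the next, and 0.0185% of the brain, the lowest. VWF, the clotting factor that endothelial cells store, was at 1494 CPM, with 165 CPM in the skin, 33.9 CPM at the median and 8.26 CPM in the brain. That is 9.05-fold above the skin, with an interval of 8.78 to 9.33.

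The receptors and other vessel genes named next stood less far above the next tissue, or below it. CALCRL, which with RAMP2 forms the adrenomedullin receptor, was at 583 CPM and 6.75-fold above the kidney, and RAMP2 was at 114 CPM and 3.41-fold above the heart. ACVRL1, a BMP receptor of endothelium, was at 243 CPM and 6.10-fold above the bladder. CDH5, the cadherin of endothelial junctions, was at 881 CPM and 2.84-fold above the heart. KDR, the main receptor for vascular endothelial growth factor, was at 179 CPM, second to the eye at 311 CPM, and SOX7 was also second, to the skin. The heart was the next tissue for most of the others.

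Alveolar capillaries hold general cells and large thin aerocytes. Of 6 tested genes of the general capillary, 5 were past the median rule and 2 were highest in the lung. CD93, a receptor of endothelial and myeloid cells, was at 220 CPM and 2.35-fold above the heart, or below 2-fold after the change of scaling, whereas CD36, a fatty acid receptor, was at 246 CPM against 551 CPM in the heart. Of 11 aerocyte genes, 8 were past the median rule and 3 were highest, or 1 after the change of scaling (without EDNRB and APLN). EDN1, the vasoconstrictor endothelin, was at 49.0 CPM and 2.58-fold above the stomach. EDNRB, its receptor and a marker of aerocytes, was at 152 CPM against 151 CPM in the bladder. CA4, the membrane carbonic anhydrase of aerocytes, was at 16.3 CPM, the third after heart and eye. EDNRB was thus at like levels in the lung and the bladder, and CA4 was higher in heart and eye than in the lung.

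Arterial and venous genes were led by gap junction proteins of arteries. GJA4 was at 106 CPM and 1.64-fold above the heart, and GJA5 was at 28.7 CPM and 2.07-fold above muscle, a lead below 2-fold after the change of scaling. DLL4, the arterial Notch ligand, was at 53.2 CPM, second to the eye at 65.3 CPM. NR2F2, a factor of veins, was at 76.7 CPM, the third. ACKR1, a marker of venules, had 18 reads.

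Of 9 lymphatic genes, 7 were past the median rule and 5 were highest in the lung. LYVE1, the hyaluronan receptor of lymphatic vessels and some macrophages, was at 503 CPM, with 157 CPM in the spleen, 146 CPM in the liver and 0.266 CPM in the brain, and its lead was below 2-fold after the change of scaling. CCL21, the chemokine of lymphatic vessels, was at 36.4 CPM and 4.57-fold above the stomach. FLT4, a lymphatic growth factor receptor, was at 52.9 CPM against 28.7 CPM in the liver, a lead lost after the change of scaling. PROX1, the factor that defines lymphatic identity, was at 8.27 CPM and ranked the eighth, and it is also a factor of eye, heart and liver, where it was highest.

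**Figure D4:**
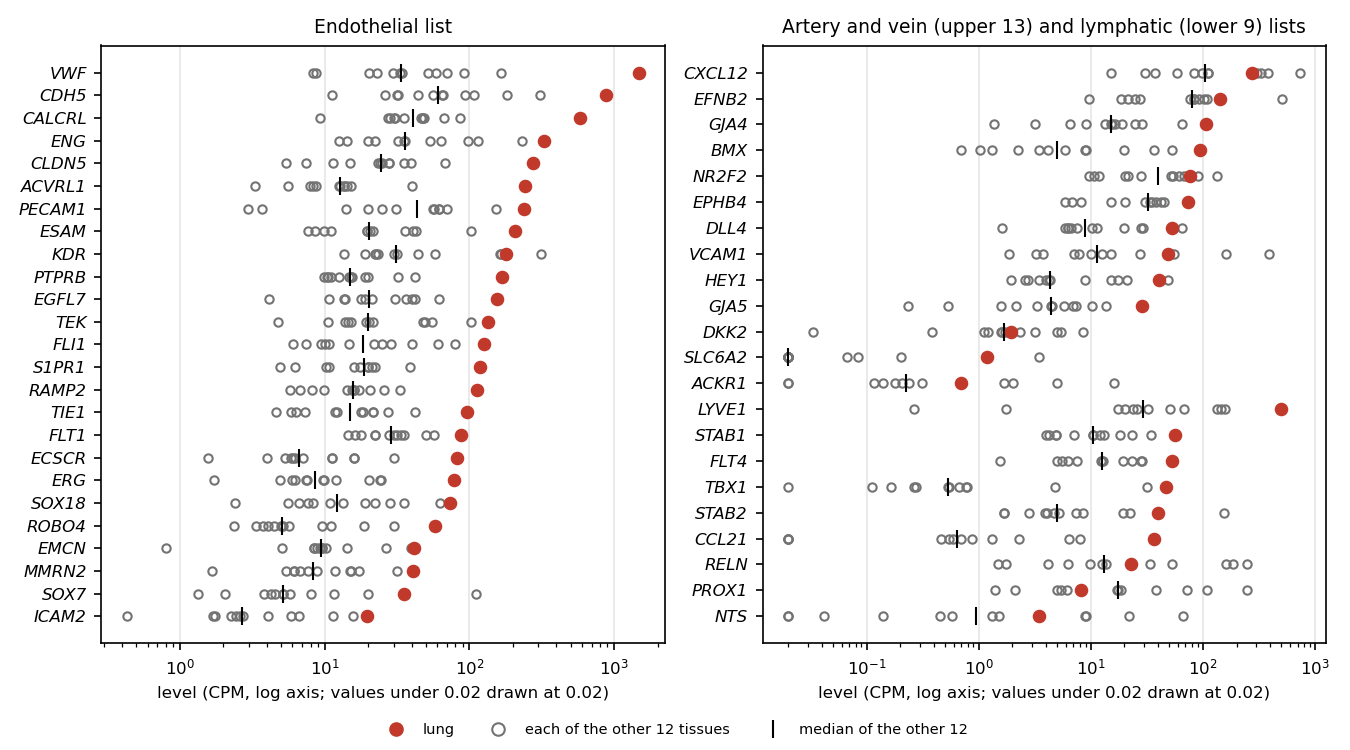
Level (CPM, log axis) in the lung (red), each of the other 12 tissues (open circles) and their median (bar) for the endothelial list (left) and the artery and vein and lymphatic lists (right). The lung is the highest tissue in 23 of 25 rows on the left, the exceptions being KDR and SOX7.

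Immune genes were higher in the lung than in most tissues, and 1 tissue, the spleen, most often lay above it. Of 76 tested genes in 6 immune lists, 59 were at least 2-fold above the median, 18 were highest in the lung and 5 were at least 2-fold above the next tissue. Of 18 macrophage and monocyte genes, 16 were past the median rule. CSF1R, the receptor that keeps macrophages alive, was at 68.5 CPM in the lung, 162 CPM in the spleen, 59.0 CPM in the liver and 13.7 CPM at the median. The complement chains C1QA, C1QB and C1QC were at 50.1, 31.2 and 25.7 CPM, the third after spleen and liver in each case. CD163, a haemoglobin scavenger receptor, was at 34.5 CPM, second to the skin at 37.2 CPM.

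Other macrophage genes lay on both sides of the median. MARCO, a scavenger receptor of alveolar macrophages, had 13 reads (0.500 CPM, the seventh of 13), and MSR1 had 11. PPARG, the factor that completes alveolar macrophages, was at 9.19 CPM and ranked the eighth, with 194 CPM in the bladder, and it also works outside macrophages. SIGLEC1, a sialic acid receptor of resident macrophages, was highest in the lung at 24.3 CPM against 15.1 CPM in the liver, and CD14, the lipopolysaccharide co-receptor, at 42.3 CPM was 1.14-fold above the spleen. Neither kept the top place after the change of scaling.

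Mast cell genes were close to their level in the spleen. Of 7 tested genes, 6 were past the median rule and 3 were highest in the lung, and the summed share of 0.0324% lay close to 0.0342% in the spleen and above the median of 0.00598%. CPA3, the carboxypeptidase of mast cell granules, was at 109 CPM, with 44.4 CPM in the spleen, 1.88 CPM at the median and no reads in the brain. CMA1, the granule chymase, was at 71.0 CPM and 1.31-fold above the spleen. KIT, the stem cell factor receptor on which mast cells depend and which other cells share, was at 101 CPM against 87.8 CPM in the spleen, a lead lost after the change of scaling.

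Granulocyte genes were divided. CSF3R, the receptor for granulocyte colony-stimulating factor, was highest in the lung at 38.2 CPM, 2.36-fold above the spleen, and below 2-fold after the change of scaling. The granule protease PRTN3 had 2 reads against 2589 in the spleen, the eosinophil peroxidase EPX had 1 read, and S100A8 had none.

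Of 16 T and natural killer cell genes, 15 were past the median rule, or 11 after the change of scaling. CD3E, part of the T cell receptor complex, was at 12.4 CPM against 12.1 CPM in the small intestine, and lost the top place after the change of scaling. GZMA, a granzyme of killer cells, was at 2.46 CPM from 64 reads, against 1.05 CPM in the spleen, or below 2-fold after the change of scaling. B cell genes were not prominent. Of 13 tested, 5 were past the median rule, 1 was at least 2-fold below the median and none was highest in the lung. CD79A, of the B cell receptor, was at 7.23 CPM and ranked the fifth, and MS4A1 had 14 reads. PAX5 and MZB1 had no reads.

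Of 16 genes of antigen presentation and innate defence, 14 were past the median rule and 5 were highest in the lung. TLR2, a receptor for bacterial lipoproteins, was at 61.8 CPM, with 36.5 CPM in the spleen and 3.03 CPM at the median. CD74, the invariant chain of class II molecules, was at 140 CPM and B2M, the light chain of class I, at 288 CPM, both second to the spleen. CXCL9, an interferon-induced chemokine, was at 1.38 CPM from 36 reads, with at most 9 reads elsewhere, and its log2 lead of 2.39 was 0.81 with liver, kidney and brain taken from other pouch young.

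Blood cell precursors were counted as a measure of blood in the tissue. All 10 red cell genes and 6 of 8 platelet genes were at least 2-fold above the median. The median log2 difference from that median was 3.18 over these blood genes and 1.90 over the immune genes. All 10 red cell genes were highest in the spleen, which held 1.67% of its library in them, and the lung held 0.0329%, the third after the liver at 0.145%. ALAS2, the first enzyme of haem synthesis in red cells, was at 110 CPM in the lung, 1758 CPM in the spleen and 12.0 CPM at the median, and it overlaps a gene on the opposite strand. Platelet genes followed the same order, with 0.00922% in the lung. VWF is stored in platelets as well as in endothelium. ITGA2B, the platelet integrin, was at 41.0 CPM in the lung and 257 CPM in the spleen. The part of blood in the endothelial and immune levels was not tested.

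**Figure D5:**
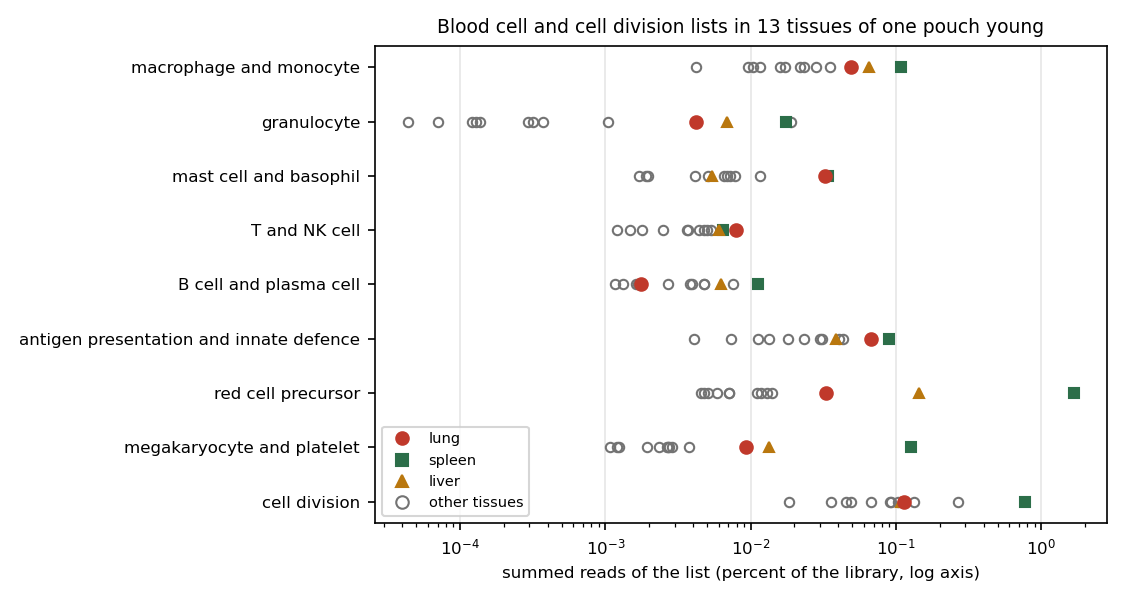
Summed reads of each immune, blood and cell division list as a percent of the library (log axis) in the lung (red), spleen (green square), liver (yellow triangle) and the other 10 tissues (open circles). The lung holds the largest share for T and natural killer cells, at 0.00790% against 0.00644% in the spleen and 0.00601% in the liver. The change of scaling, which cut the log2 lead of EPAS1 over the liver from 2.39 to 1.37, was not applied to these shares. The top place is therefore given for library shares only. The lung lies beside the spleen for mast cells, but far below the spleen for red cell, platelet and cell division genes.

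Cell division did not mark the lung. None of 20 genes was 2-fold above or below the median of the other tissues. MKI67, an antigen of dividing cells, was at 218 CPM, the fifth of 13, with 1971 CPM in the spleen and 149 CPM at the median. TOP2A, the topoisomerase of dividing cells, was at 215 CPM, the fourth. The summed share was 0.113% of the library, against 0.777% in the spleen and 0.0185% in the brain.

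Markers of organs that lie near the lung were used to check the label. Of 60 tested, none was highest in the lung, while 23 were past the median rule, 38.3% against the 24.6% of all genes. These included 6 of 10 skeletal muscle, 5 of 12 cardiac and 5 of 12 nervous system genes. The atrial and cardiac genes NPPA, NPPB, MYL7 and NKX2-5 had no reads, and TNNI3, cardiac troponin I, was at 4.38 CPM, second to the heart at 686 CPM. The muscle factors MYOD1 and MYOG, the thymic factor FOXN1 and the squamous genes KRT4 and DSG3 had no reads. STMN2, a protein of neurons, was at 65.4 CPM, the fourth, with 1432 CPM in the brain. The defining surfactant and type I genes, at the levels given above, were in the library labelled lung.

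Across the genes compared, 25 had the largest lead over the next tissue among those with at least 100 reads in the lung. Of these, 10 belonged to the lists above. LOC118829242, a protein-coding locus without a symbol (chromosome 8, 64964623 to 64969171), was at 1037 CPM, with 0.723 CPM in the small intestine, 1435-fold lower. It lies between LOC118828495 and MAT1A. SLC22A31, a solute carrier of the organic ion family, was at 50.3 CPM and 240-fold above muscle, where it had 6 reads, but a juvenile liver of another animal reached 24.1 CPM. MMP7, a protease of injured and glandular epithelium, was at 21.8 CPM and 51.9-fold above the kidney.

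Other genes among the 25 were as follows. CDHR4 was at 40.7 CPM (0.335 CPM in the spleen), CCDC17 at 24.5 CPM (0.243 CPM in the eye) and TCTE1, of the nexin-dynein complex, at 14.5 CPM (0.166 CPM in the brain). CDC20B and CCDC78, of the structures that build new centrioles, were at 14.4 and 33.7 CPM, 49.3-fold and 44.5-fold above the next tissue. CDC20B reached 5.02 CPM, from 16 reads, in a pouch young brain of another animal. Its log2 lead of 5.62 was 3.19 with liver, kidney and brain taken from other pouch young. C3H20orf85 (333 reads) and APOBEC4 (251 reads) had no reads in any of the other 12 tissues, which makes them at least 87.8-fold and 66.2-fold higher in the lung.

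Few genes were low in the lung alone. GATM, which starts creatine synthesis and overlaps a gene on the opposite strand, was at 4.12 CPM, against 17.5 CPM in the heart, the lowest of the others, and 1819 CPM in the small intestine. PDE2A, a cyclic nucleotide phosphodiesterase, was at 3.42 CPM against 7.80 CPM in the skin. ADAMTSL5, ST6GAL2 and LOC118845730, the remaining 3 of the 5 genes, each overlap a gene on the opposite strand and had 14 reads or fewer in the lung. Among genes with at least 100 reads in every other tissue, HSPD1, a mitochondrial chaperone, was at 88.1 CPM against 129 CPM in the brain, and NDUFS8, of respiratory complex I, at 26.8 CPM against 35.9 CPM, neither of them past the 2-fold rule.

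The lung was also set beside the 101 libraries of livers, kidneys, brains and tongues from other animals. Of the 489 genes, 325 (66.5%) were above every one of those libraries and 234 (47.9%) were at least 2-fold above every one. SFTPC reached at most 0.938 CPM there and SFTPB at most 0.456 CPM, from 11 and 3 reads. AGER reached at most 6.76 CPM, in an adult liver, and NKX2-1 at most 6.46 CPM, in a pouch young brain. CALCRL came closer, with 422 CPM in a pouch young kidney of 214 reads for this gene, against 583 CPM in the lung. Several genes with a 2-fold lead among Sandy's tissues were exceeded in adult livers, where ANO1 reached 183 CPM against 99.6 CPM in the lung, GZMA 20.8 against 2.46 CPM and CXCL9 25.9 against 1.38 CPM.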

How the data were processed

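RNA was extracted with TRIzol from tissue stored in RNAlater, and each tissue gave 1 library (NEXTFLEX, poly(A)-enriched, strand-specific, single-end reads of 100 bases). Per the submitters' processing notes, reads were trimmed with Trim Galore 0.6.7 and aligned with HISAT2 2.2.1. They were then counted over genes of the mTriVul1 assembly in SeqMonk, and the strand setting of that count is not given in the sources used here. The deposited values are on a log2 scale and were named RPKM by the authors. Tested against the file, they are log2 of reads scaled to the library total (CPM) with no correction for gene length, and a gene without reads is written as 0.9 read. Levels were therefore compared between tissues for a gene, and genes were ranked against each other only by number of reads, which depends on their length. Reads were recovered from these deposited log2 values, and in each of the 13 libraries 100% of values up to 10000 reads were within 0.05 of a whole number.

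Genes with at least 10 reads in at least 1 of the 13 tissues were compared. Levels below 3 reads were set to 3 reads for the log2 leads and the 2-fold rules. Ratios used the reads as counted, except that a tissue without reads was set to 3 reads, which makes that ratio a lower bound. A gene was counted as higher or lower at a 2-fold difference. Intervals of levels are exact Poisson and those of ratios exact conditional binomial. The 34 gene lists hold 523 entries, of which 438 were matched by symbol. The members and lists were chosen with earlier results of these data known. From each list, up to 5 genes highest in the lung, the 5 with the largest lead over the next tissue and genes under 10 reads could be named, and from all genes the 25 with the largest lead among those with at least 100 reads in the lung, the 10 lowest against the other tissues and the 15 with the most reads apart from mitochondrial and ribosomal protein genes. Other list members and genes named in the text were chosen after their values were seen. The alternatives were another scaling (equal 75th percentile), no filter, a floor of 1 CPM, other fold sizes, other pouch young as the source of liver, kidney and brain, and the comparison without spleen or without heart and muscle. The steps were tested on simulated data. Values were computed with scipy 1.17.1, pandas 2.3.3 and numpy 2.4.6 and drawn with matplotlib 3.10.9 under Python 3.11.15. A further 2 libraries, whose labels disagree with each other, were not used. The 2 pouch young livers that the paper excluded for quality were kept among the libraries of other animals.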

Additional observations from a re-analysis of the deposited data

How the results depend on the processing

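With 1 library per tissue no spread between lungs is known, and an error in this library would be in every value. No paired analysis was possible because each tissue is 1 library and the labels give no replicate numbers. Of 96 counts recomputed under other settings, 83 were within 1.5 times the reported one, and of 72 that did not change the fold size, 66 were. The 489 genes at least 2-fold above every other tissue became 744 at 1.5-fold and 199 at 4-fold, which follows from the fold size. They became 384 with the 75th percentile made equal, all of them among the 489. They became 234 where a gene also had to be 2-fold above every library of other animals, a rule chosen after seeing the data. The 5 genes below every other tissue became 13 with that scaling, 2 with a floor of 1 CPM, 12 at 1.5-fold, 1 at 4-fold, 11 without the spleen and 10 without heart and muscle. The scaling also moved the split of genes 2-fold from the median of the other tissues from 4611 above and 905 below to 3705 and 1284. Immune genes above that median numbered 33 at 4-fold instead of 59. Cell division genes numbered 5 instead of 0 at 1.5-fold, and 5 with liver, kidney and brain taken from other pouch young. Genes of other tissues numbered 10 with a floor of 1 CPM and 15 at 4-fold instead of 23. Of 82 named genes past 2-fold, 68 were past it with the other scaling, 80 with the floor of 1 CPM and 79 with other pouch young, where HIGD1B, CXCL9 and PRF1 were not. For PRF1, a pore-forming protein of killer cells with 17 reads in the lung, the log2 difference of 1.37 from the highest other tissue became -0.27 with other pouch young, and the cause was not tested.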

Other observations

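The genes in this section were looked up after the values were seen, and each is given as a level without a test. Growth factors of vessels ranked differently in the lung. VEGFA, the main signal for vessel growth, was at 1242 CPM against 325 CPM in the kidney, the next tissue, and VEGFD, a ligand for lymphatic and blood vessels, was at 39.9 CPM against 1.76 CPM in the spleen. VEGFB was at 13.7 CPM and ranked the twelfth of 13, and PGF and ANGPT2 each ranked below 1 other tissue. EPAS1, the hypoxia-inducible factor of endothelium, was at 1209 CPM and 5.25-fold above the liver, a log2 lead of 2.39 that was 1.37 with the 75th percentile made equal, while its relative HIF1A was at 65.9 CPM, the seventh. S1PR3, a receptor for sphingosine phosphate, was at 260 CPM and 8.26-fold above the kidney, and TMEM100, a target of endothelial BMP signalling, was 9.34-fold above the kidney.

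Genes of lipid synthesis and transport were divided. SREBF1, the factor that turns on fatty acid synthesis, was at 225 CPM and 2.98-fold above the large intestine, and MFSD2A, a carrier of lysophospholipids, was at 99.6 CPM and 9.76-fold above the eye. ACLY, which supplies acetyl-CoA for fatty acid synthesis, ranked the fourth at 194 CPM, and ELOVL6, which lengthens fatty acids, the eighth at 69.5 CPM. SLC6A4, the serotonin transporter, was at 118 CPM and 4.79-fold above the heart, and SLCO2A1, the prostaglandin transporter, was at 192 CPM and 8.32-fold above the liver, a log2 lead of 3.06 that was 2.04 with the 75th percentile made equal.

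Gene families with ciliary members were counted by symbol, after the values of the ciliated list were seen. Of 32 tested genes named CFAP, 15 (46.9%) were at least 2-fold above every other tissue, and 29 were at least 2-fold above the median. Of 13 axonemal dynein heavy chains named DNAH, 7 (53.8%) were 2-fold above every other tissue. Of 115 genes named CCDC, many of which are not ciliary, 17 (14.8%) were. Over all 18775 genes compared, 2.60% were at least 2-fold above every other tissue and 24.6% at least 2-fold above the median. Markers of mesothelium, the layer covering the lung, ranked from the second to the ninth, and none was highest in the lung. LRRN4 was at 154 CPM and UPK3B at 35.1 CPM, both second to the bladder, at 167 and 81.9 CPM. KRT19 at 323 CPM and UPK1B at 79.9 CPM ranked the third. WT1 at 10.2 CPM and BNC1 at 2.08 CPM ranked the fifth, and CALB2, with 4 reads, the ninth. MSLN was not matched by symbol.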
